A study of Mus musculus with 9 samples.

Results

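Genes of the nuclear lamina and the inner nuclear envelope were followed in the mRNA of cultured mouse striatal cells that model Huntington disease (HD). The genes, listed because their loss lets DNA leak from nuclei or micronuclei, were Lmna, Lmnb1, Lmnb2, Lbr, Emd, Tmpo, Banf1, Sun1, Sun2 and Chmp7. They were found by symbol and make up 10 of the 36410 genes listed, and all 10 were among the 13508 genes that passed the filter on low counts. Control cells (STHdhQ7/Q7) carried 7 repeats in exon 1 of both Htt copies, HD-het cells (STHdhQ7/Q111) carried 7 on 1 copy and 111 on the other, and HD-homo cells (STHdhQ111/Q111) carried 111 on both. The labels give the strain of the cells as C57/BL6 and name no further treatment. Each line gave 3 libraries of poly(A) RNA. Every genotype is 1 immortalized line, so genotype and line cannot be told apart. The labels do not say whether the 3 libraries of a line came from separate cultures, and the p-values therefore measure the spread between these libraries only.

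The nuclear lamina is a meshwork of A-type and B-type lamins under the inner nuclear membrane. Membrane proteins such as LBR and emerin, along with LAP2 proteins, tie it to chromatin. SUN proteins join it to nesprins in the outer membrane and so to the cytoskeleton. When the envelope reforms after mitosis or is torn, BAF gathers membrane on DNA and CHMP7 brings in the ESCRT-III machinery that seals the holes. The study itself is about the DNA sensor cGAS in HD cells.

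Between 29507665 and 41197931 reads were counted per library, and the values below are TMM-normalized counts per megaread (CPM). Replicate libraries of a line differed by 2.20 to 39.2 times the variance of counting alone, and replicate 3 stood apart in control and HD-het cells. The striatal label was checked against marker genes. The 8 markers of striatal medium spiny neurons summed to 1.22 to 4.09 CPM in the 9 libraries, and Drd1 was at 0 in each of them. The 5 general neuronal markers summed to 88.8 to 114 CPM, almost all from Map2 and Tubb3. The 3 neural progenitor markers summed to 660 to 701 CPM in control cells, 949 to 989 CPM in HD-het cells and 27.2 to 40.2 CPM in HD-homo cells, with Nes the highest of them in each line. From control to HD-het cells Nes went from 526 to 840 CPM and Pax6 from 32.1 to 48.2 CPM, while Sox2 went down from 128 to 82.9 CPM. The 5 fibroblast or mesenchymal markers, led by Col1a1, summed to 2485 to 3376 CPM in control cells, 7514 to 8723 CPM in HD-het cells and 6370 to 6846 CPM in HD-homo cells. The higher sum in HD-het cells came from Col1a1 and Col3a1. Col1a2 averaged 73.4 CPM in control, 3.15 CPM in HD-het and 1494 CPM in HD-homo cells. Dcn averaged 4.06, 1.65 and 21.5 CPM and Pdgfra 5.21, 4.38 and 307 CPM in the same order. Markers of microglia, oligodendrocytes and endothelial cells stayed at 2.51 CPM or less in sum, and the astrocyte markers reached 17.7 CPM in HD-homo cells through Slc1a3. These differences in cell state move with the lines, and their part in the results on the envelope genes was not tested.

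Levels of different genes were compared per kilobase of exon, with the union of all annotated exons as the length of a gene. The order depends on this length, and no other length was tried for it. The ratios per kilobase given further below rest on the same lengths. In control cells Lmna stood highest at 190 ± 14.7 CPM per kb (SD, n = 3), followed by Banf1 at 128 CPM per kb and Emd at 82.3 CPM per kb. Lmnb1 at 61.6, Tmpo at 56.9, Lbr at 36.4 and Sun2 at 32.0 CPM per kb formed the middle of the order, and Lmnb2 at 22.3, Sun1 at 14.0 and Chmp7 at 6.64 CPM per kb its lower end. No neighbours in this order overlapped between control libraries, which does not test the choice of length. The closest neighbours were Lmnb1 and Tmpo, 1.08-fold apart. In HD-het cells Emd passed Banf1, and the libraries of Lmnb1 and Banf1 overlapped, as did those of Lbr and Tmpo. In HD-homo cells the overlapping neighbours were Lmna with Banf1 and Sun2 with Lmnb1. Lmna led and Chmp7 closed the order in all 3 lines.

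**Figure D1:**
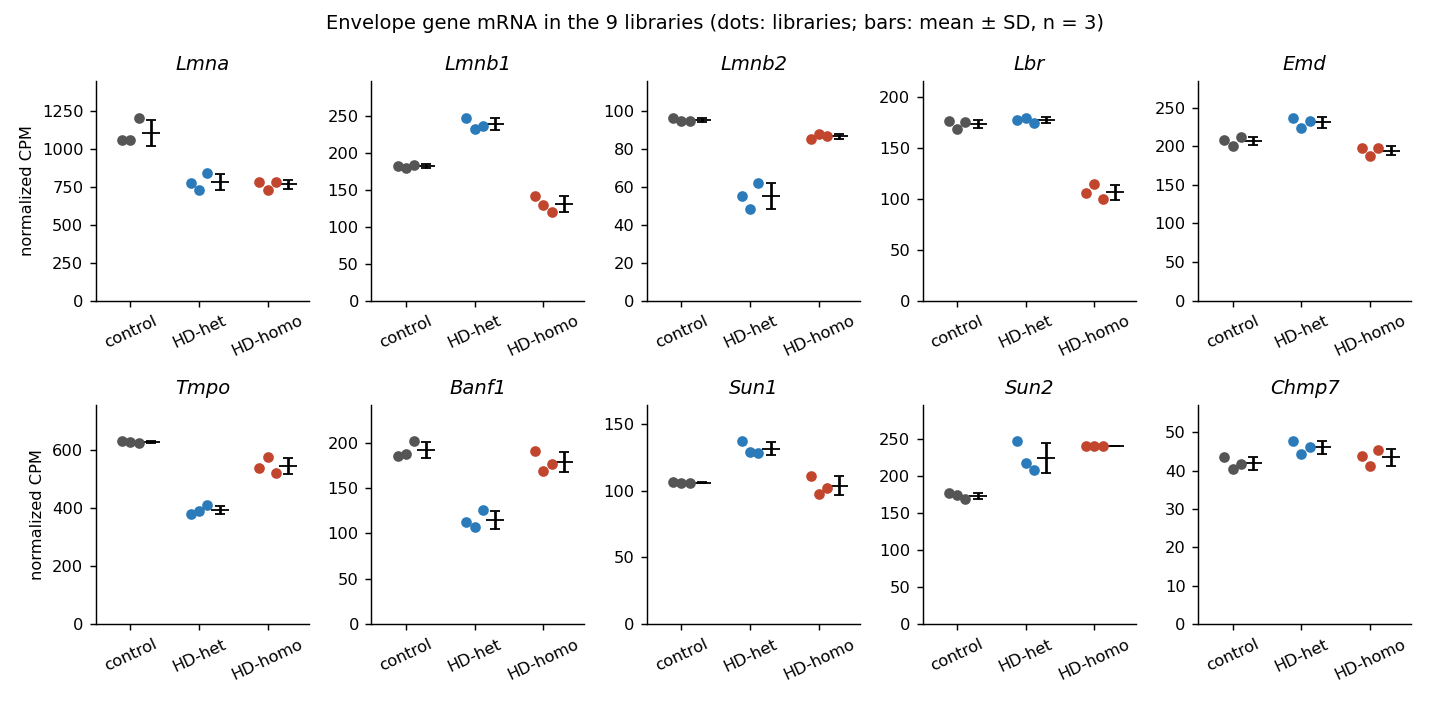
Normalized CPM (vertical axis, from 0) of the 10 envelope genes in the 3 control, 3 HD-het and 3 HD-homo libraries. Dots are libraries and bars give the mean ± SD of a line. Lmna was lower in both HD lines, Lmnb1 was highest in HD-het cells and lowest in HD-homo cells, and Lmnb2, Tmpo and Banf1 were lowest in HD-het cells.

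The 3 lamin genes each followed a different order of lines. Lmna, which encodes the A-type lamins A and C, lies on the minus strand of GRCm38 chromosome 3 from 88480147 to 88509956. Its normalized CPM was 1059.5, 1062 and 1209 in the control libraries, 776, 731 and 842 in those of HD-het cells and 785, 732 and 785 in those of HD-homo cells. Each HD library lay below each control library, and the HD lines overlapped. The Lmna mRNA was 1.45-fold lower in HD-homo than control cells (log2 fold change -0.53, SE 0.0744, adjusted p = 9.42e-05 by the quasi-likelihood test of edgeR, adjusted after Benjamini and Hochberg), and 1.42-fold lower in HD-het cells (log2 fold change -0.50, adjusted p = 0.000118 from edgeR). Between the HD lines the log2 difference was -0.03, with a 95% interval from -0.19 to 0.13 (adjusted p = 0.744 from edgeR). In bulk RNA, a lower level in every cell and fewer cells with a high level cannot be told apart, and gene counts do not separate lamin A from lamin C.

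Lmnb1 encodes a farnesylated B-type lamin that is often followed as a marker of senescence, in which it falls. The gene spans, on the plus strand, chromosome 18 from 56707813 to 56753424. Its CPM was 183, 179.7 and 184 in the control libraries, 248, 233 and 237 in those of HD-het cells and 142, 129.5 and 120.3 in those of HD-homo cells. The 3 lines did not overlap. Lmnb1 rose 1.31-fold in HD-het cells (log2 fold change 0.39, SE 0.0642, adjusted p = 0.000246 from edgeR) and was 1.39-fold lower in HD-homo cells (log2 fold change -0.48, SE 0.0645, adjusted p = 7.02e-05 from edgeR). The direct comparison gave 1.83-fold less Lmnb1 in HD-homo cells than in HD-het cells (log2 fold change -0.87, adjusted p = 3.47e-07 from edgeR). Lmnb1 had the widest range between line means of the 10 genes.

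Lmnb2, the other B-type lamin, lies on the minus strand of chromosome 10 from 80901203 to 80918245 and moved differently. The control libraries held 96.7, 95.0 and 95.1 CPM, the HD-het libraries 55.0, 48.3 and 62.2 CPM and the HD-homo libraries 85.5, 88.2 and 86.8 CPM. The lines did not overlap. Lmnb2 was 1.73-fold lower in HD-het cells than in the control (log2 fold change -0.79, SE 0.0790, adjusted p = 5.98e-06 from edgeR) and 1.57-fold higher in HD-homo cells than in HD-het cells (log2 fold change 0.65, adjusted p = 1.81e-05 from edgeR). In HD-homo against control cells the log2 difference of -0.14 (95% interval -0.31 to 0.03) did not pass the threshold (adjusted p = 0.148 from edgeR). It passed with an adjusted p of 0.0369 when only these lines were fitted, and the adjusted p over all alternatives ran from 0.0369 to 0.270.

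The balance of A-type to B-type lamin mRNA was described as the ratio of Lmna to the sum of Lmnb1 and Lmnb2, per kilobase of exon and with no test. It was 2.15, 2.20 and 2.45 in the control libraries, 1.37, 1.39 and 1.52 in those of HD-het cells and 1.98, 1.95 and 2.21 in those of HD-homo cells. All HD-het libraries lay below the other 6, and HD-homo overlapped with control. The mean was 2.27 ± 0.163 (SD, n = 3) in control, 1.43 ± 0.0808 (SD, n = 3) in HD-het and 2.05 ± 0.142 (SD, n = 3) in HD-homo cells.

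**Figure D2:**
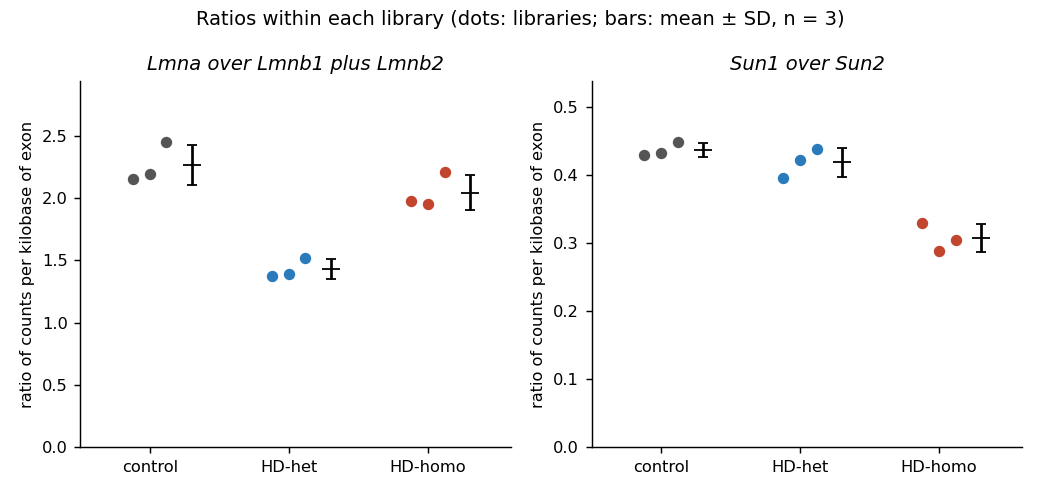
Ratios per kilobase of exon (vertical axes, from 0, no unit) of Lmna to Lmnb1 plus Lmnb2 and of Sun1 to Sun2 in each library, with bars for the mean ± SD of a line (n = 3). The lamin ratio was lowest in HD-het cells at 1.43, and the Sun1 to Sun2 ratio was lowest in HD-homo cells at 0.308.

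The enzymes that finish the lamins' tails were read next, since B-type lamins and prelamin A are farnesylated and trimmed. All 5 listed enzymes were tested. In HD-homo against control cells 2 were higher, 1 was lower and 2 did not pass, with a median log2 fold change of 0.07, where 29.6% of all tested genes were higher and 28.9% lower. Fnta, the farnesyltransferase alpha subunit, rose from 89.3 ± 3.45 to 115 ± 3.37 CPM (SD, n = 3) and Icmt, the carboxyl methyltransferase, from 105 ± 1.42 to 122 ± 5.36 CPM (SD, n = 3). Fntb, the beta subunit, fell from 20.3 ± 1.36 to 14.6 ± 0.780 CPM (SD, n = 3). HD-het cells had 0 higher and 2 lower, namely Rce1, a CAAX protease, 1.52-fold lower at 19.8 ± 0.896 CPM (SD, n = 3) and Fnta at 72.9 ± 1.31 CPM (SD, n = 3), with a median of -0.07, where 33.8% of all tested genes were higher and 31.4% lower. Zmpste24, the protease that trims prelamin A, had log2 fold changes of 0.06 in HD-homo and -0.03 in HD-het cells, with adjusted p of 0.444 and 0.728 from edgeR.

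Among the membrane and chromatin tethers, Lbr fell in HD-homo cells, while Tmpo and Banf1 were lowest in HD-het cells. Lbr encodes the lamin B receptor, which binds heterochromatin and also acts as a sterol reductase, and lies on the minus strand of chromosome 1 from 181815335 to 181843046. Its CPM was 176, 168 and 176 in the control libraries, 177, 179.5 and 174 in those of HD-het cells and 105, 114 and 99.7 in those of HD-homo cells. The HD-homo libraries lay below all others. Lbr was 1.63-fold lower in HD-homo than control cells (log2 fold change -0.70, SE 0.0587, adjusted p = 1.39e-06 from edgeR) and 1.66-fold lower than in HD-het cells (adjusted p = 6.33e-07 from edgeR). The log2 difference between HD-het and control cells was 0.03, with a 95% interval from -0.10 to 0.16 (adjusted p = 0.655 from edgeR).

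Tmpo, which encodes the LAP2 family of lamina-associated proteins, lies on the minus strand of chromosome 10 from 91147571 to 91181315. Gene counts do not separate the proteins of this family. The control libraries held 628, 626 and 622 CPM, the HD-het libraries 379, 389 and 409 CPM and the HD-homo libraries 535, 575 and 519.8 CPM, and the lines did not overlap. Tmpo was 1.60-fold lower in HD-het cells (log2 fold change -0.67, adjusted p = 1.77e-06 from edgeR) and 1.15-fold lower in HD-homo cells (log2 fold change -0.20, adjusted p = 0.00976 from edgeR). It was 1.39-fold higher in HD-homo cells than in HD-het cells (adjusted p = 1.89e-05 from edgeR).

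Banf1 encodes BAF, the small DNA-bridging protein that binds LEM-domain proteins of the inner membrane, and lies on the minus strand of chromosome 19 from 5364638 to 5367168. Its CPM was 186, 188 and 202 in the control libraries, 112, 107 and 126 in those of HD-het cells and 191, 169 and 176 in those of HD-homo cells. The HD-het libraries lay below all others, and HD-homo overlapped with control. Banf1 was 1.66-fold lower in HD-het cells than in the control (log2 fold change -0.73, SE 0.0737, adjusted p = 6.38e-06 from edgeR) and 1.55-fold higher in HD-homo cells than in HD-het cells (adjusted p = 1.39e-05 from edgeR). For HD-homo against control cells the log2 difference was -0.10, with a 95% interval from -0.26 to 0.06 (adjusted p = 0.248 from edgeR). Its exons overlap those of Eif1ad on the opposite strand over 428 bases. Exons on the opposite strand also overlap Lbr over 440 bases, Sun1 over 302, Tmpo over 244 and Sun2 over 147. Lbr shares a further 69 bases with Gm26004 on the same strand. The libraries were strand-specific, but the setting used for counting is not given in the sources used here.

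Emd encodes emerin, a LEM-domain protein that binds lamins and BAF, and spans, on the plus strand, chromosome X from 74254687 to 74261548. The control libraries held 208, 201 and 212 CPM, the HD-het libraries 237, 224 and 233 CPM and the HD-homo libraries 197, 188 and 198 CPM. The lines did not overlap, yet the steps were small. Emd was 1.12-fold higher in HD-het than in control cells (log2 fold change 0.16, adjusted p = 0.0174 from edgeR), a call that was lost without control replicate 1 (adjusted p = 0.0531), control replicate 2 (0.0817) or HD-het replicate 1 (0.0664), with adjusted p from 0.00680 to 0.0817 over all alternatives in edgeR and DESeq2. It was 1.19-fold lower in HD-homo cells than in HD-het cells (adjusted p = 0.00103 from edgeR), and the difference from control cells of -0.09 did not pass (adjusted p = 0.151 from edgeR). Of the 50-base words in Emd exons, 16.2% also occur in other genes, 13 in number. Eif1 had the most matches, counted per transcript, and its share of the words was not computed. A further 343 bases overlap Gm14686 on the same strand, so that the counts of Emd are uncertain to that extent.

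The 11 other listed proteins of the inner membrane and the lumen between the membranes were all tested. In HD-homo against control cells 2 were higher and 3 lower (median log2 fold change -0.03), while HD-het cells had 4 higher and 4 lower (median -0.02). Of all tested genes, 29.6% were higher and 28.9% lower in HD-homo cells and 33.8% and 31.4% in HD-het cells, so these counts lie near the background. Tmem43, known as LUMA, was highest in HD-het cells at 162 ± 3.43 CPM and lowest in HD-homo cells at 86.9 ± 7.57 CPM, against 122 ± 6.60 CPM in control cells (SD, n = 3 each). It rose in HD-het cells (log2 fold change 0.40, adjusted p = 0.000351 from edgeR) and fell in HD-homo cells (log2 fold change -0.49, adjusted p = 9.44e-05 from edgeR). Lemd3, also called MAN1, showed the largest rise in HD-homo cells (log2 fold change 0.17, adjusted p = 0.0493 from edgeR), and Nemp1 the largest fall in HD-het cells (log2 fold change -0.54, adjusted p = 1.92e-05 from edgeR).

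Sun2 rose in both HD lines, and Sun1 rose in HD-het cells. Sun2, an inner-membrane anchor of the bridge to the cytoskeleton (minus strand of chromosome 15, 79724070 to 79742536), gave 177, 174 and 169 CPM in the control libraries, 247, 218 and 208 CPM in those of HD-het cells and 240.5, 240.6 and 240.2 CPM in those of HD-homo cells. Both HD lines lay above control and overlapped with each other. Sun2 was 1.39-fold higher in HD-homo cells (log2 fold change 0.47, SE 0.0642, adjusted p = 7.52e-05 from edgeR) and also higher in HD-het cells (log2 fold change 0.37, adjusted p = 0.000358 from edgeR). Between the HD lines the log2 difference of 0.10 did not pass (95% interval -0.04 to 0.24, adjusted p = 0.183 from edgeR). Without HD-het replicate 1, the highest Sun2 library of that line, it was 0.17 with an adjusted p of 0.0232, at the lower end of a range up to 0.515 over the alternatives.

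Sun1, its partner gene (plus strand of chromosome 5, 139200637 to 139249840), was near 106 CPM in all control libraries, at 137, 129 and 128 CPM in those of HD-het cells and at 111, 97.3 and 102 CPM in those of HD-homo cells. The HD-het libraries lay above the rest, and HD-homo overlapped with control. Sun1 was 1.24-fold higher in HD-het than in control cells (log2 fold change 0.31, SE 0.0599, adjusted p = 0.000814 from edgeR) and 1.27-fold lower in HD-homo cells than in HD-het cells (adjusted p = 0.000320 from edgeR). HD-homo and control cells differed by -0.03 on the log2 scale, with a 95% interval from -0.16 to 0.10 (adjusted p = 0.660 from edgeR). The ratio of Sun1 to Sun2 per kilobase was 0.437 ± 0.0105 in control, 0.419 ± 0.0213 in HD-het and 0.308 ± 0.0211 in HD-homo cells (SD, n = 3 each, no test), and the HD-homo libraries lay below all others.

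All 4 nesprin genes, the outer-membrane partners of the SUN proteins, were tested. Syne1 was 65.0 ± 3.63 CPM in control, 17.8 ± 1.93 CPM in HD-het and 98.5 ± 17.6 CPM in HD-homo cells (SD, n = 3 each), 3.65-fold lower in HD-het cells (adjusted p = 2.98e-07 from edgeR) and 1.52-fold higher in HD-homo cells (adjusted p = 0.00104 from edgeR). Syne2 fell in both HD lines, from 211 ± 6.11 CPM to 113 ± 7.18 CPM in HD-het (log2 fold change -0.89) and 82.4 ± 20.7 CPM in HD-homo cells (log2 fold change -1.35; SD, n = 3 each, adjusted p = 0.000199 and 1.03e-05 from edgeR). Syne3 was lower in HD-homo cells (log2 fold change -0.67, adjusted p = 1.64e-05 from edgeR) and differed by -0.02 in HD-het cells (adjusted p = 0.833 from edgeR). Syne4 was called higher in HD-homo cells at 0.629 ± 0.180 CPM against 0.146 ± 0.0889 CPM (SD, n = 3), from 3 to 8 reads in a control library and 16 to 35 in an HD-homo library. In counts, 2 were higher and 2 lower in HD-homo cells (median log2 fold change -0.04), and 0 were higher and 2 lower in HD-het cells (median -0.46), beside 29.6% higher and 28.9% lower of all tested genes in HD-homo and 33.8% and 31.4% in HD-het cells.

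Chmp7, the adaptor that starts ESCRT-III assembly at the envelope (minus strand of chromosome 14, 69717000 to 69732541), was the lowest and flattest of the 10 genes. Its CPM was 43.5, 40.3 and 41.7 in the control libraries, 47.6, 44.4 and 46.1 in those of HD-het cells and 43.7, 41.1 and 45.5 in those of HD-homo cells. The HD-het libraries lay above control, and HD-homo overlapped with both. The log2 difference from control was 0.05 in HD-homo cells (95% interval -0.08 to 0.19, adjusted p = 0.484 from edgeR) and 0.14 in HD-het cells (95% interval -0.00071 to 0.28, adjusted p = 0.0746 from edgeR). The line means of Chmp7 spanned 0.14 on the log2 scale. A further list held 14 genes of ESCRT-III and of proteins that act with it, Spast and Cc2d1b among them. Of these, 8 were higher and 3 lower in HD-homo than control cells (median log2 fold change 0.17), and 6 were higher and 2 lower in HD-het cells (median 0.13). The shares of all tested genes were 29.6% higher and 28.9% lower in HD-homo cells and 33.8% higher and 31.4% lower in HD-het cells. Vps4a, an ATPase that takes ESCRT-III filaments apart, rose most in HD-homo cells, from 53.9 ± 1.55 to 72.4 ± 6.97 CPM (SD, n = 3; log2 fold change 0.42, adjusted p = 0.000400 from edgeR). Chmp1b rose most in HD-het cells (log2 fold change 0.49, adjusted p = 0.000190 from edgeR), and Chmp4c fell most in both lines, by -1.08 in HD-homo and -2.17 in HD-het cells on the log2 scale, from a low 6.95 ± 0.745 CPM (SD, n = 3).

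**Figure D3:**
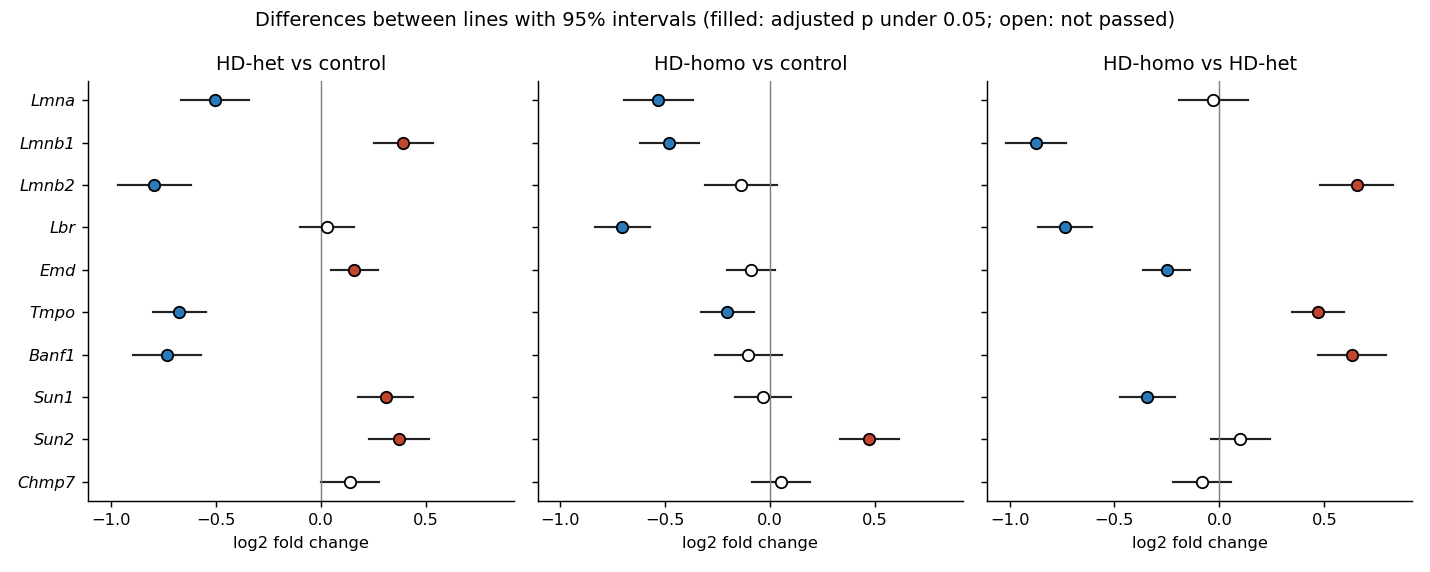
Log2 fold changes (horizontal axes) of the 10 envelope genes for HD-het against control, HD-homo against control and HD-homo against HD-het, with 95% intervals from edgeR's quasi-likelihood fit. Filled dots passed an adjusted p of 0.05. Lmnb1 lay on opposite sides of 0 in the HD lines, at 0.39 and -0.48, and no gene reached a log2 change of 1.

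Counted together, 5 of the 10 genes passed the threshold in HD-homo against control cells, with 1 higher and 4 lower, where 58.6% of all tested genes passed, 29.6% higher and 28.9% lower. In HD-het against control cells 8 passed, with 4 higher and 4 lower, against 65.1% of all genes, 33.8% higher and 31.4% lower. In HD-homo against HD-het cells 7 passed, with 3 higher and 4 lower, against 71.6% of all genes, 36.0% higher and 35.6% lower. The libraries of the lines did not overlap for 7, 9 and 7 of the 10 genes in these comparisons, against 65.3%, 74.0% and 72.8% of all genes. These shares lie near those of all genes, and the number of calls is not a result about the envelope genes. The median absolute log2 fold change of the 10 genes was 0.17, 0.38 and 0.41 in the 3 comparisons, against 0.32, 0.40 and 0.46 over all tested genes, and none of the 10 changed 2-fold in any comparison, where 19.8%, 19.4% and 24.5% of all genes did. The lowest line mean among the 10 was 41.8 CPM, for Chmp7 in control cells, whereas tested genes reach below 1 CPM, as Syne4 does. Sizes of change were not compared among genes of like level. Their signed medians were -0.12, 0.08 and -0.06, against 0.01, 0.03 and 0.00 over all genes.

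Genes that take the envelope apart and rebuild it in mitosis, and the pores within it, were in most cases lower in HD-het cells, where 33.8% of all tested genes were higher and 31.4% lower. Of 7 disassembly and reassembly factors, 0 were higher and 6 lower in HD-het cells than in the control (median log2 fold change -0.38), led by Rcc1, the chromatin-bound exchange factor of Ran, at 101 ± 11.6 against 153 ± 2.91 CPM (SD, n = 3; adjusted p = 0.000183 from edgeR). In HD-homo cells 1 was higher and 0 lower (median 0.04), and that was Ppp2ca, a phosphatase subunit (log2 fold change 0.17, adjusted p = 0.00855 from edgeR). Of 15 pore scaffold and basket genes, 1 was higher and 13 lower in HD-het cells (median -0.43). In HD-homo cells 5 were higher and 2 lower (median 0.09), with 29.6% of all tested genes higher and 28.9% lower. Nup210, a membrane nucleoporin, fell from 54.6 ± 2.91 CPM in control to 8.27 ± 1.19 CPM in HD-het and 1.51 ± 0.401 CPM in HD-homo cells (SD, n = 3 each), 6.59-fold and 36.2-fold lower (adjusted p = 2.32e-08 and 3.62e-10 from edgeR). Sec13 rose most in both lines, by 0.29 in HD-het and 0.39 in HD-homo cells on the log2 scale (adjusted p = 0.000631 and 8.59e-05 from edgeR). Over the alternatives the 13 lower pore genes in HD-het cells became 12 to 13 and the 6 lower reassembly factors became 4 to 6.

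Many envelope and pore genes are made in dividing cells, so 19 proliferation genes were read beside them. In HD-het against control cells 1 was higher and 12 lower (median log2 fold change -0.30), and in HD-homo against control cells 8 were higher and 2 lower (median 0.05). In HD-homo against HD-het cells 14 were higher and 0 lower (median 0.37). The matching shares of all tested genes were 33.8% higher and 31.4% lower, 29.6% and 28.9%, and 36.0% and 35.6%. The replication helicase genes Mcm3 and Mcm7 were lower in HD-het cells by log2 fold changes of -0.85 and -0.56 (adjusted p = 3.38e-05 and 2.46e-05 from edgeR). Mcm3 was the largest called fall in HD-het cells and Mcm7 the largest in HD-homo cells (log2 fold change -0.20, adjusted p = 0.0235 from edgeR). Mcm6 of the same helicase did not pass in HD-het cells (log2 fold change 0.02, adjusted p = 0.769 from edgeR). Mki67 was the gene that rose in HD-het cells, from 274 ± 28.3 to 362 ± 16.4 CPM (SD, n = 3; adjusted p = 0.00716 from edgeR), and it also rose in HD-homo cells (log2 fold change 0.49, adjusted p = 0.00251 from edgeR). The part of cell division in the lower Tmpo, Banf1 and Lmnb2 of HD-het cells was not tested.

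**Figure D4:**
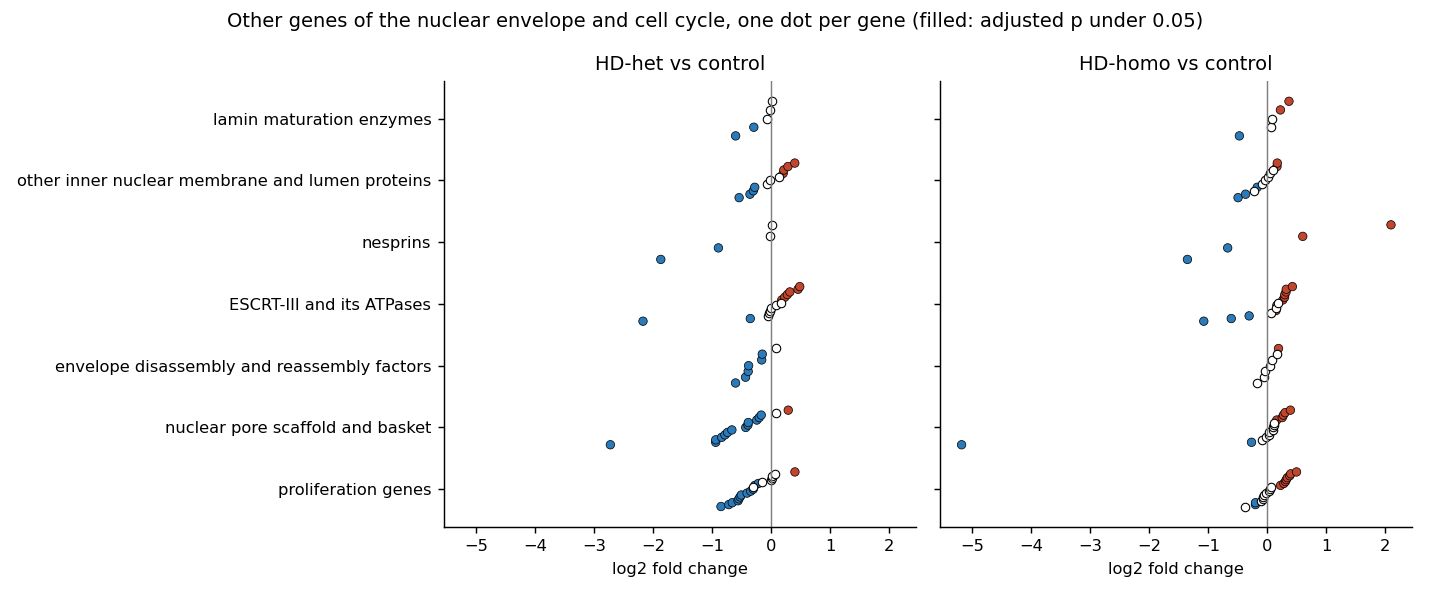
Log2 fold changes (horizontal axes) of every gene in 7 lists of envelope and cell-cycle genes, for HD-het and HD-homo against control cells, 1 dot per gene. Filled dots passed an adjusted p of 0.05. In HD-het cells 13 of 15 pore genes and 12 of 19 proliferation genes were called lower, and 1 in each list higher. Of all tested genes, 31.4% were lower and 33.8% higher in that comparison. Nup210 was the farthest point in both panels.

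Promoters of some of the genes that moved are shown. Tmpo, Banf1 and Lmnb2 were lowest in HD-het cells, Lbr fell in HD-homo cells and Sun2 rose in both HD lines. Lmna, lower in both HD lines, is not among those printed. The sequences are from RefSeq on GRCm38.p6, in which 8 of the 10 genes were matched with 13 start sites that are printed or scanned here. Start sites of a gene are numbered by rising genomic coordinate. For genes on the minus strand, such as Tmpo, Banf1 and Lmnb2, the first start therefore lies downstream of the second. The bases read 5′ to 3′ on the strand of the gene and end just before the start site, except for Banf1, where coding genes' exons cover the window and 30 bases around its E2F site are shown. Capitals mark CCAAT boxes (CCAAT), CHR elements (TTTGAA) and E2F sites (TTTCCCGC, TTTGGCGC, TTTCGCGC or TTTGCCGC), each on either strand.
Tmpo, second start site, minus strand, chr10:91171620-91171739: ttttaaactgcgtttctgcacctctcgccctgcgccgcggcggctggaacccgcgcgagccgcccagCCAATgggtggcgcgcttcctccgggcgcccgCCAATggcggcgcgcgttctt
Lmnb2, second start site, minus strand, chr10:80918246-80918365: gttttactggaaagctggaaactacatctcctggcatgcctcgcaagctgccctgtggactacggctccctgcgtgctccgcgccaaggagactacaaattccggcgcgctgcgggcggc
Banf1, second start site, minus strand, chr19:5366930-5366959: gaTTTCCCGCcccctcttcgtccgtccctt
Lbr, minus strand, chr1:181842402-181842521: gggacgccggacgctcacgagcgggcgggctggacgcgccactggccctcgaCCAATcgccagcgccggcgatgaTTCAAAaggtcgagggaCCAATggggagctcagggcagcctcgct
Sun2, minus strand, chr15:79742537-79742656: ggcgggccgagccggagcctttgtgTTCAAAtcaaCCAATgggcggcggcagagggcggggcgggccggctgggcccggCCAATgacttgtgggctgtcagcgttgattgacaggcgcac

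In the 250 bases before the start, an E2F site was found in 2 of the 13 windows, 195 bases before the first start of Tmpo and 81 bases before the second start of Banf1, where 1.86% of 32851 promoter windows held one. CCAAT boxes were found in 8 of the 13 windows against 33.8% of all windows, and CHR elements in 3, those of Lbr, Sun2 and the first start of Tmpo, against 16% of all windows. The GC box (GGGCGG), which is not marked, was found in 9 windows against 32.7%. No capital falls in the Lmnb2 window shown. The matches describe letters in these windows only.

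The genes most like Lmnb1 across the 9 libraries were looked up by the distance between centred log2 CPM, over 9265 genes of at least 10 CPM. They were Fam173a at a distance of 0.157, Sil1 at 0.170 and Eif4g3 at 0.174. Fam173a had 14.1 CPM in control, 17.6 CPM in HD-het and 10.2 CPM in HD-homo cells on average.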

How the data were processed

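RNA was measured in 9 libraries, 3 for each of 3 striatal lines, grouped by the genotype in the sample titles. The authors deposited gene counts, whole numbers by symbol and without normalization. Per the submitters' processing notes, which give no role or order, the tools were cutadapt, Bowtie 1.1.2, RSEM 1.3.0 and DESeq2, and the builds GRCm38.p5 and mm10. RSEM estimates counts and shares reads among similar genes, so counts of Emd may include such shares; whether the deposited counts come from RSEM is not stated.

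The tests used edgeR 4.0.16 and limma 3.58.1 under R 4.3.3. Genes were kept by filterByExpr (minimum count 10), which left 13508 of 36410, and libraries were scaled by TMM with factors from 0.984 to 1.03. The quasi-likelihood fit took all 9 libraries together, gave each line a mean of its own, and compared 3 pairs of lines (two-sided, Benjamini-Hochberg adjustment within each comparison, threshold 0.05). The HD-line comparisons share the control libraries. SEs are the log2 fold change over the square root of F. With totals of 29507665 to 41197931, 3 counts correspond to 0.0710 to 0.101 CPM, for counting error only. Exact permutation of 3 libraries against 3 cannot go below p = 0.10 and was not used.

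Lengths are unions of GENCODE release M21 exons, matched for 97.1% of tested genes. Named genes were all 10 envelope genes, all genes of lists of up to 5, the largest rise and fall of longer lists in each HD line, and 3 genes most like the widest-ranging member. The members and lists were chosen with earlier results of these data known. The motifs and the promoters printed were picked after the results were seen. The pipeline was tested on simulated counts, where some changes in genes with low counts, and some small changes at higher counts, were missed. Alternatives were other scalings, DESeq2 1.42.0, other filters, only 2 lines, the replicate number as a block and leaving out each library. Of promoter sequence, that of Lmnb1 and Chmp7 was not used here.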

Additional observations from a re-analysis of the deposited data

How the results depend on the processing

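Of 480 recomputed fold changes of the 10 genes, 470 kept their direction and their side of the threshold, 3 lost the call, 3 gained it and 4 changed sign. The sign changes concern differences near 0 that were never called. Lmna in HD-homo against HD-het cells became 0.00095 with library totals only and ran from -0.078 to 0.026 when 1 library was left out, turning without HD-het replicate 3 or HD-homo replicate 2. Sun1 in HD-homo against control cells ran from -0.087 to 0.012 and turned without HD-homo replicate 2. The cause was not tested. The calls lost were those of Emd in HD-het cells, and the calls gained were Lmnb2 in HD-homo cells when only these lines were fitted, Sun2 between the HD lines without HD-het replicate 1, and Chmp7 in HD-het cells with the replicate block. Leaving out 1 library at a time gave 6842 to 8068 called genes in HD-homo against control cells, 7865 to 9216 in HD-het against control cells and 8977 to 9675 between the HD lines, and 5, 7 to 8 and 7 to 8 called envelope genes. In the counts lower in HD-het cells, pore genes numbered 12 to 13, proliferation genes 10 to 14 and reassembly factors 4 to 6 over all alternatives. Genes of the ESCRT-III list higher in HD-homo cells numbered 6 to 10. These list counts were recomputed after the data were seen, and the other lists were not recomputed.

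The labels give the lines the same replicate numbers and do not say what same-numbered libraries share. Deviations of same-numbered libraries correlated with r from 0.0304 to 0.0544 for HD-homo and control, 0.0823 to 0.290 for HD-het and control and 0.0492 to 0.231 for the HD lines. In these comparisons 6, 5 and 5 of 6 libraries correlated best with their own number. Same-numbered libraries had a positive r in every case, while different numbers gave r from -0.292 to 0.110. Several same-number r were small and lay below the 0.110 of HD-het replicate 2 with control replicate 1. Deviations were centred within the 3 libraries of a line, so these r are not independent of each other. Whether libraries of the same number share variation was not tested. With the replicate block, 8372, 9160 and 9938 genes and 5, 9 and 7 envelope genes were called, and Chmp7 in HD-het cells had a log2 fold change of 0.14 (adjusted p = 0.0425 from edgeR).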
